A study of Mus musculus with 6 samples.

Results

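The 10 genes described here encode enzymes of the palmitoylation cycle. They comprise 7 ZDHHC palmitoyltransferases (Zdhhc24, Zdhhc3, Zdhhc2, Zdhhc20, Zdhhc17, Zdhhc5 and Zdhhc8) and 3 depalmitoylating enzymes (Lypla1, Lypla2 and Ppt1). They were taken by symbol from a table of 55335 genes in cultured mouse interneurons. The set was built around Zdhhc24, which was selected on its FPKM values because it was higher with AAV-shbrpf1 in each pair of libraries. Its difference between the viruses is therefore given as a description. It stayed in the fit over all genes, but no p-value is given for that difference. All 10 genes passed the filter on low values used for testing, a mean of at least 1 FPKM (fragments per kilobase of transcript, scaled to library depth) in either group.

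GABAergic interneurons were cultured from the brains of wild-type C57BL/6 embryos at embryonic day 14.5, and the stated purpose concerns Brpf1 in interneurons derived from the medial ganglionic eminence. Brpf1 encodes a chromatin reader that assembles histone acetyltransferase complexes. The labels name neural progenitor cells as their source. For 12 hours, 3 samples received AAV-shbrpf1, an adeno-associated virus named for an shRNA against Brpf1, and 3 received AAV-scramble, its control; all 6 samples were therefore infected. The labels number the libraries 1 to 3 within each virus. They do not say whether a number marks a separate culture, litter or day, so p-values measure the spread between these libraries, which may be technical. Libraries of the same number deviated together, and they are called pairs 1, 2 and 3.

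Protein S-palmitoylation is the reversible attachment of a long-chain fatty acid to cysteine through a thioester bond. ZDHHC enzymes are multi-pass membrane proteins that take the acyl group from acyl-CoA onto the cysteine of their Asp-His-His-Cys motif and hand it to the substrate, and serine hydrolases of the cytosol or the lysosome remove it again. In neurons the cycle sets the membrane residence of synaptic scaffolds, vesicle proteins and receptor subunits.

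The catalytic motif identifies the transferases, so the coding sequence around it is shown for each of the 7 genes, with the 4 codons of the motif in capitals and 9 bases on either side. It was read in frame from the GENCODE M21 transcripts of GRCm38.
Zdhhc24: ctacgtcgtGACCATCACTGTcgcctattg
Zdhhc3: cgcaagatgGATCACCACTGTccttgggtc
Zdhhc2: ttgaagatgGATCATCATTGCccatgggtg
Zdhhc20: cttaagatgGATCATCACTGTccatgggtg
Zdhhc17: gcgaaatttGATCACCATTGCccatgggtg
Zdhhc5: gaggaatttGACCATCACTGCccttgggta
Zdhhc8: gaggactttGACCATCACTGCccctgggtc
Each transferase held the motif once in frame. In 6 of the 7 genes the motif was followed by a proline codon and a tryptophan codon, and Zdhhc24 was the exception. Zdhhc5 and Zdhhc8 shared all 12 bases of the motif. The hydrolases are shown in the same way, with the 5 codons of the glycine-x-serine-x-glycine motif around the catalytic serine in capitals.
Lypla1: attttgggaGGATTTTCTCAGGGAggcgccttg
Lypla2: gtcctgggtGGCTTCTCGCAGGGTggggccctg
Ppt1: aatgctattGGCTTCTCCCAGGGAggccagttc
The share of G or C at the third codon position was 42.6% in Zdhhc20 and 44.4% in Lypla1, against 68.3% in Zdhhc24 and 68.2% in Zdhhc3. The median of 11290 genes was 61%.

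Brpf1, the gene the virus targets, measured 3.13, 4.58 and 3.78 FPKM with AAV-shbrpf1 1 to 3, against 3.29, 5.45 and 4.84 FPKM with AAV-scramble 1 to 3. It was lower by 4.88%, 16.0% and 21.8% in the pairs. The groups overlapped (two-sided exact permutation test over 3 against 3 libraries, p = 0.4, where 0.1 is the smallest possible). That test ignored the pairs, and Brpf1 differed between the library numbers (limma F test, adjusted p = 0.0324). With the pairs as a block its log2 difference was -0.18, with a standard error of 0.10 (limma, unadjusted p = 0.127, adjusted p = 0.9997). Neither test showed a lower level of Brpf1, so every direction below is that of libraries labelled AAV-shbrpf1. Summed markers of GABAergic interneurons measured 637 to 750 FPKM with AAV-shbrpf1 and 609 to 925 FPKM with AAV-scramble. Glutamatergic markers stayed at or below 0.709 FPKM and microglial markers at or below 0.160 FPKM, whereas those of radial glia and astrocytes measured 220 to 853 FPKM with AAV-shbrpf1 and 245 to 820 FPKM with AAV-scramble. Oligodendrocyte lineage markers measured 122 to 245 FPKM with AAV-shbrpf1 and 106 to 261 FPKM with AAV-scramble. In such bulk samples, fewer cells of a type and less RNA per cell cannot be told apart.

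Zdhhc24, a less studied transferase, lies at chr19:4878668-4885397 (GRCm38, plus strand; ENSMUSG00000006463). It measured 4.18, 6.15 and 5.48 FPKM in AAV-shbrpf1 libraries 1 to 3, against 2.02, 1.78 and 2.13 FPKM in AAV-scramble libraries 1 to 3. Every AAV-shbrpf1 library lay above every AAV-scramble library. The means were 5.27 ± 1.00 FPKM with AAV-shbrpf1 and 1.98 ± 0.178 FPKM with AAV-scramble (SD, n = 3 each), a ratio of 2.67. Within pairs Zdhhc24 was higher by 107%, 245% and 158%. The average difference was 1.06 on the log2(FPKM + 1) scale, which understates the change of a gene this low. Among the 12792 genes tested, 74 (0.578%) lay higher in every AAV-shbrpf1 library than in any AAV-scramble library, 63 (0.492%) lay lower in every one, and 915 (7.15%) were higher in each pair.

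The depth behind these values was modest. At its longest coding transcript of 2558 nt and the depth read from the steps of low FPKM values, Zdhhc24 stood for about 206, 206 and 232 fragments with AAV-shbrpf1 and 73.6, 96.1 and 113 fragments with AAV-scramble. Counting error alone gives each pair's ratio a relative error of 11.5% to 13.6%. The annotation lists 6 transcripts of Zdhhc24, and the table does not divide its value among them. No other gene of the table overlaps Zdhhc24.

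**Figure D1:**
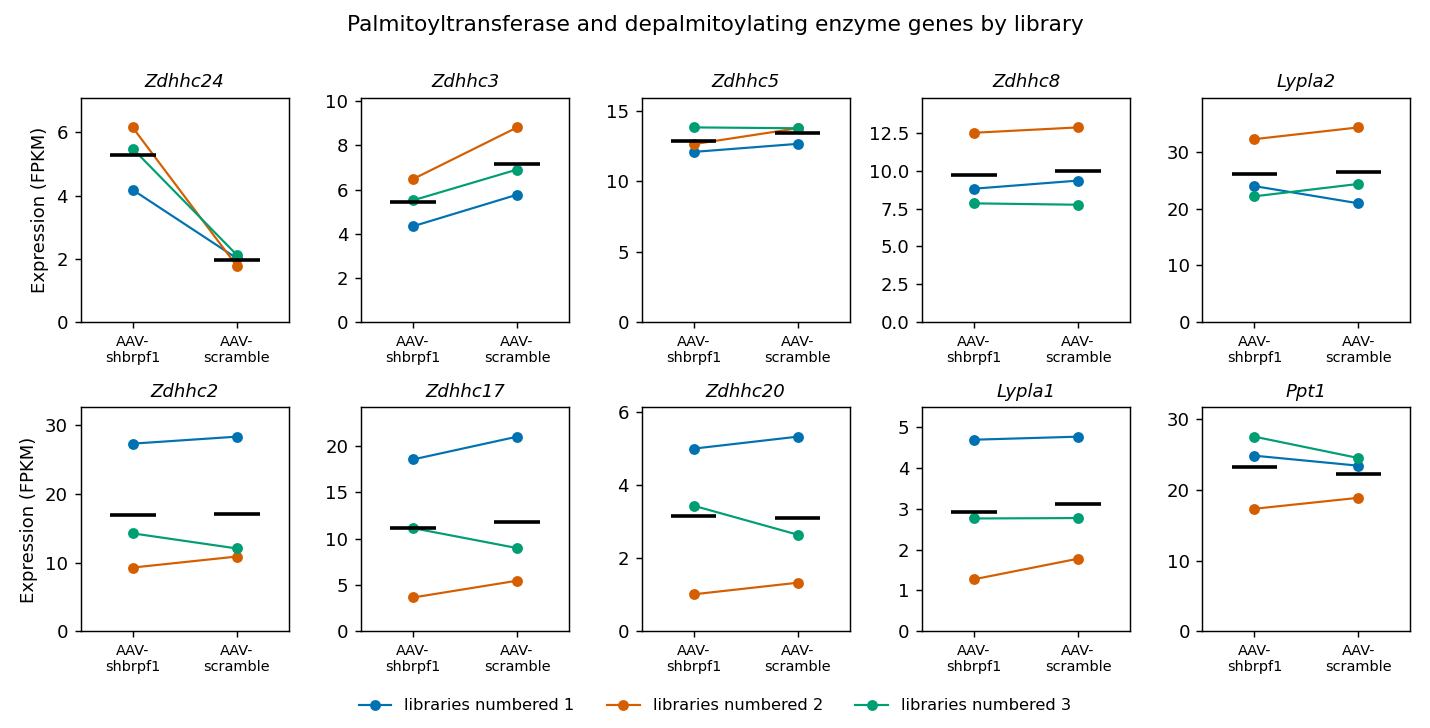
FPKM of the 10 palmitoylation-cycle genes in each of 3 AAV-shbrpf1 and 3 AAV-scramble libraries, with same-numbered libraries joined by a line and black bars at the means. Zdhhc24 is the gene whose AAV-shbrpf1 values, 4.18 to 6.15 FPKM, all lie above its AAV-scramble values, 1.78 to 2.13 FPKM.

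The genes beside Zdhhc24 did not share its separation of the viruses. Bbs1, which encodes a subunit of the ciliary BBSome and begins 1481 bp beyond Zdhhc24, measured 5.26, 5.91 and 5.91 FPKM with AAV-shbrpf1, against 5.30, 5.59 and 5.44 FPKM with AAV-scramble. Actn3, an alpha-actinin gene 759 bp before Zdhhc24, measured 0.724, 1.32 and 1.21 FPKM with AAV-shbrpf1, against 0.877, 2.08 and 0.761 FPKM with AAV-scramble. Ctsf, the cathepsin F gene, averaged 6.82 ± 0.538 FPKM with AAV-shbrpf1 and 6.86 ± 1.58 FPKM with AAV-scramble. The groups overlapped for all 3 of these genes. Gm25334, the remaining gene within 20000 bp, averaged 0 FPKM with AAV-shbrpf1 and 0.0471 FPKM with AAV-scramble.

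Within the family of 24 ZDHHC genes in the table, Zdhhc24 held rank 16, 10 and 12 by FPKM with AAV-shbrpf1 1 to 3 and rank 18, 17 and 19 with AAV-scramble 1 to 3. Its share of the summed FPKM of the family was 2.74%, 4.54% and 3.94% with AAV-shbrpf1, against 1.26%, 1.25% and 1.59% with AAV-scramble. The sum over the whole family was 153, 135 and 139 FPKM with AAV-shbrpf1 and 161, 142 and 134 FPKM with AAV-scramble, so the family total overlapped between the viruses. Without Zdhhc24 the sums were 149, 129 and 134 FPKM with AAV-shbrpf1 and 159, 141 and 131 FPKM with AAV-scramble. The 9 depalmitoylating genes summed to 111, 138 and 119 FPKM with AAV-shbrpf1 and 106, 133 and 124 FPKM with AAV-scramble.

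Zdhhc3 encodes a Golgi transferase with synaptic substrates. It lies at chr9:123066160-123113205 on the minus strand. It measured 4.34, 6.48 and 5.51 FPKM with AAV-shbrpf1 1 to 3, against 5.77, 8.81 and 6.90 FPKM with AAV-scramble 1 to 3. The AAV-shbrpf1 library was the lower in each pair, by 24.8%, 26.5% and 20.2%, while the groups as wholes overlapped. The means were 5.44 ± 1.07 FPKM with AAV-shbrpf1 and 7.16 ± 1.54 FPKM with AAV-scramble (SD, n = 3 each). The log2 difference of -0.34 had a standard error of 0.25 and a 95% interval from -0.93 to 0.25 without pairing (limma, adjusted p = 1). With the pairs as a block the interval ran from -0.56 to -0.11, with an unadjusted p of 0.0106 from limma and an adjusted p of 0.9997 over all genes. Counting error of each pair's ratio was 4.96% to 5.88%, smaller than each pair's difference.

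Lypla1, a cytosolic thioesterase, was the other gene lower with AAV-shbrpf1 in each pair. It measured 4.68, 1.27 and 2.76 FPKM with AAV-shbrpf1, against 4.76, 1.78 and 2.77 FPKM with AAV-scramble. It was lower by 1.57%, 28.3% and 0.357%, and in pairs 1 and 3 this was far under the counting errors of 10.2% and 12.5%. Of all genes tested, 1444 (11.3%) were lower in each pair.

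None of the 9 genes other than Zdhhc24 passed an adjusted p under 0.05 between the viruses, and 0 of 12792 genes did (0%) in limma, with or without the pairs as a block. At an unadjusted p under 0.05 there were 23 of the 12792 genes without the block and 280 with it. Both are smaller shares than the 0.05 that evenly spread p-values would give. With the block, the 95% interval of the log2 difference was -0.26 to 0.14 for Zdhhc5, -0.24 to 0.17 for Zdhhc8 and -0.28 to 0.26 for Zdhhc2. It was wider, -0.51 to 0.26, for Zdhhc17 and -0.34 to 0.34 for Zdhhc20. For the hydrolases it was -0.39 to 0.18 for Lypla1, -0.25 to 0.23 for Lypla2 and -0.18 to 0.27 for Ppt1. The median log2 difference of the 10 genes was -0.02, and that of all genes tested was -0.02.

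**Figure D2:**
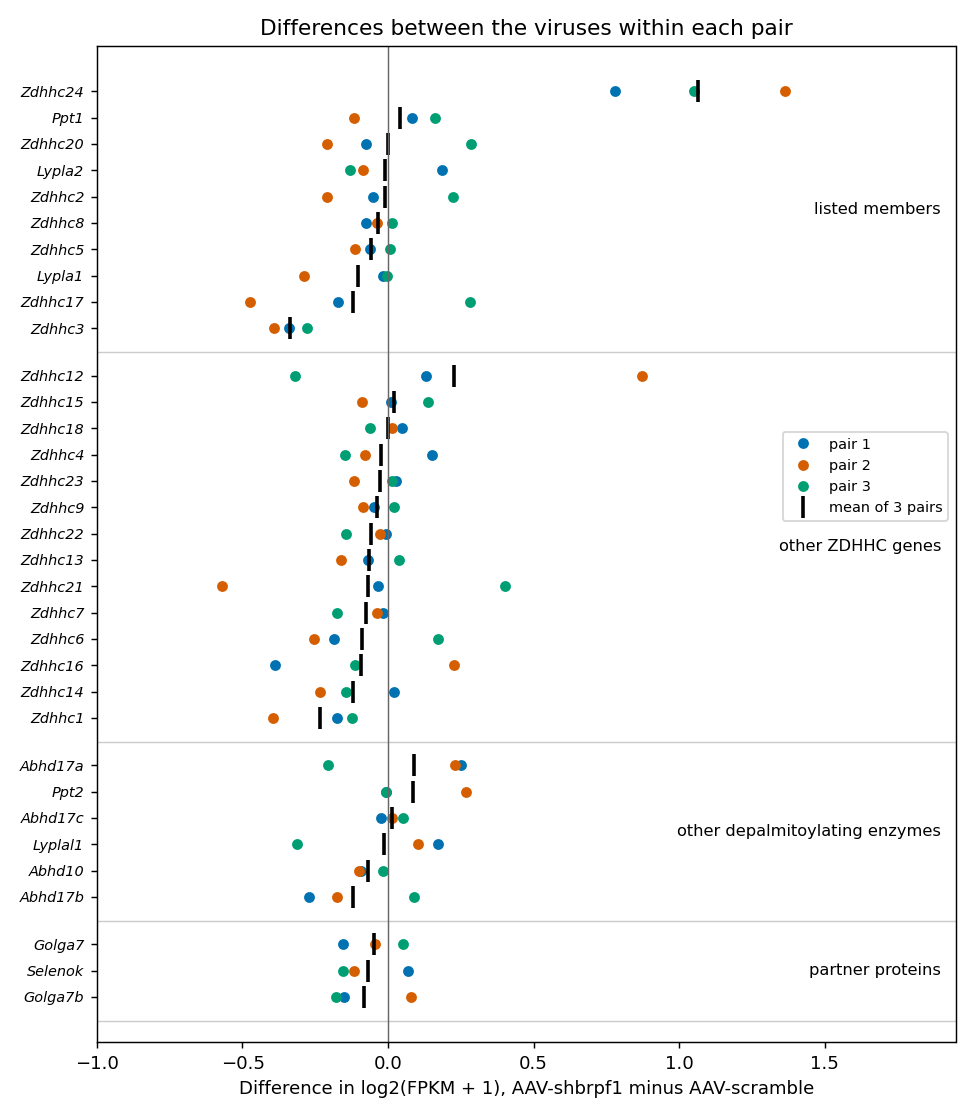
Difference in log2(FPKM + 1), AAV-shbrpf1 minus AAV-scramble, within each of the 3 pairs (points) and averaged (bars), for the 10 genes and for the other genes of the palmitoylation cycle that passed the filter. The 3 pairs of Zdhhc24 lie to the right of 0 with an average of 1.06, and those of Zdhhc3 lie to the left with an average of -0.34.

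**Figure D3:**
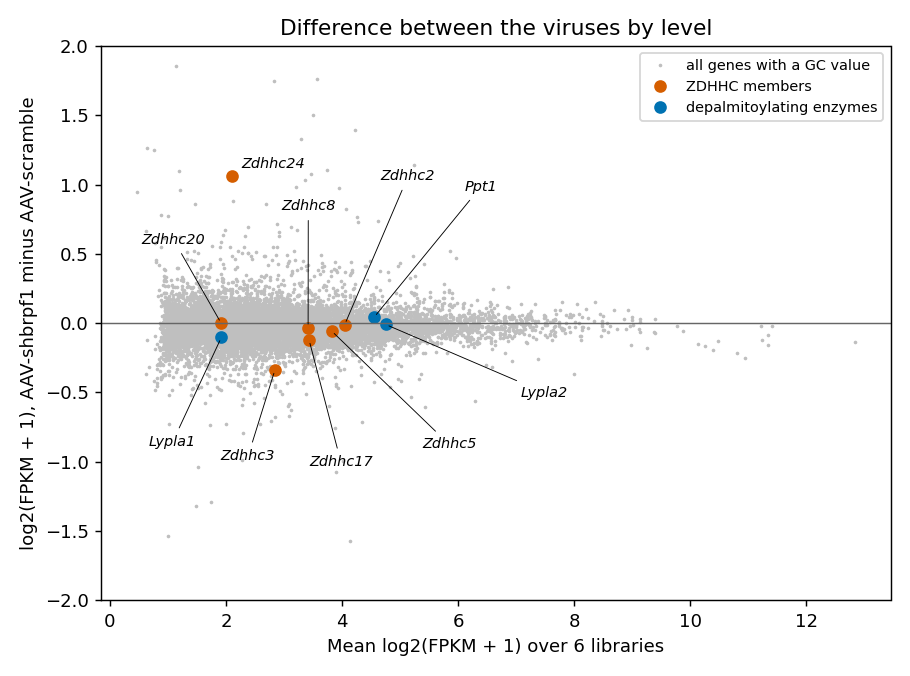
Average difference in log2(FPKM + 1), AAV-shbrpf1 minus AAV-scramble, against the mean log2(FPKM + 1) over 6 libraries for 11318 genes with a known GC content (grey; 1 gene lies outside the axis) and the 10 genes (coloured). Zdhhc24 stands at 1.06, and the other 9 genes lie between -0.34 and 0.04.

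The promoters of Zdhhc24 and Zdhhc3, whose differences had opposite signs in every pair, are shown as the bases before the gene start, from RefSeq (GRCm38.p6), on the strand of the gene. Capitals mark CCAAT and GGGCGG, the core letters bound by the factor NF-Y and by Sp-family factors, on either strand (ATTGG and CCGCCC on the other). The windows are chr19:4878418-4878667 on the plus strand for Zdhhc24 and chr9:123113206-123113444 on the minus strand for Zdhhc3.
Zdhhc24: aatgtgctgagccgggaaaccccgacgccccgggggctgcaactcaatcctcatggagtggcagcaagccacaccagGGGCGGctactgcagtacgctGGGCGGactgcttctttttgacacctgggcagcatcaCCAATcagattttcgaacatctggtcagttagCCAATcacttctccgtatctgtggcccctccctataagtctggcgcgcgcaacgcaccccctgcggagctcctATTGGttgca
Zdhhc3: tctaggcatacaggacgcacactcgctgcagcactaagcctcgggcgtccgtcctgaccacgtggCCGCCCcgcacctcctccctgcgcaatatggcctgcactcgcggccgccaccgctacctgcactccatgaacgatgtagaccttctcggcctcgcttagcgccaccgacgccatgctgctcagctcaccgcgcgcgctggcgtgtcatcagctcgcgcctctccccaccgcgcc
The Zdhhc24 window held CCAAT 3 times and GGGCGG 2 times, and the Zdhhc3 window held GGGCGG once, with no overlap between the motifs. Of 32851 RefSeq promoter windows of 250 bases, 33.9% held CCAAT at least once, 2.79% held it 3 times or more and 32.7% held GGGCGG. Promoters of 8 of the 10 genes were matched, and apart from Zdhhc24 only Zdhhc5, with 2 matches, held CCAAT. Zdhhc20 held GGGCGG 7 times in a window of 76.0% GC, against 58.8% GC for Zdhhc24, and the median over all windows was 52.4%. These matches describe letters and no binding was measured.

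By mean FPKM over the 6 libraries the order was Lypla2 (26.4), Ppt1 (22.7), Zdhhc2 (17.0), Zdhhc5 (13.1), Zdhhc17 (11.5), Zdhhc8 (9.85), Zdhhc3 (6.30), Zdhhc24 (3.62), Zdhhc20 (3.13) and Lypla1 (3.00). The ranges of all neighbours in this order overlapped. Within single libraries Zdhhc8 lay above Zdhhc3, and Zdhhc3 above Zdhhc24, in 6 of 6. Zdhhc5, a plasma-membrane transferase of dendrites, was the steadiest, at 12.1, 12.6 and 13.8 FPKM with AAV-shbrpf1 and 12.7, 13.8 and 13.8 FPKM with AAV-scramble, a highest over lowest of 1.14. Zdhhc17, the transferase that binds huntingtin, spread the most, with a highest over lowest of 5.75.

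Most of these genes differed between the library numbers. With the virus in the model, 8 of the 10 genes passed (limma F test, adjusted p under 0.05), against 69.4% of all genes tested; Zdhhc24 and Zdhhc5 did not (adjusted p = 0.549 and 0.423). Between numbers 1 and 2, 5 genes were higher in number 1 (42.4% of all genes) and 3 were lower (22.9% of all genes). Between numbers 1 and 3, 4 were higher in number 1 (15.8% of all genes) and 0 lower (15.3%). Between numbers 2 and 3, 2 were higher in number 2 (12.9% of all genes) and 4 lower (34.3%).

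Zdhhc17 and Zdhhc20 had the widest ratios between numbers 1 and 2 among the 7 transferases. Zdhhc17 measured 18.6, 3.66 and 11.1 FPKM with AAV-shbrpf1 1 to 3, against 21.0, 5.47 and 8.99 FPKM with AAV-scramble 1 to 3. Number 1 was 4.34 times number 2 on average, a log2 difference of 1.92 ± 0.19 (SE, limma, adjusted p = 0.00123). Zdhhc20, known in human cells for palmitoylating the EGF receptor, measured 5.00, 1.01 and 3.44 FPKM with AAV-shbrpf1, against 5.33, 1.33 and 2.65 FPKM with AAV-scramble, with number 1 at 4.40 times number 2. Zdhhc2, which palmitoylates the postsynaptic scaffold encoded by Dlg4, measured 27.3, 9.28 and 14.2 FPKM with AAV-shbrpf1, against 28.3, 10.9 and 12.1 FPKM with AAV-scramble. In all 3 genes both libraries numbered 1 were the highest and both numbered 2 the lowest, whichever virus they carried.

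Zdhhc8, a close relative of Zdhhc5, ran the other way. It measured 8.81, 12.5 and 7.84 FPKM with AAV-shbrpf1, against 9.34, 12.9 and 7.75 FPKM with AAV-scramble, and the log2 difference of number 1 minus 2 was -0.44 ± 0.10 (SE, limma, adjusted p = 0.0117). Zdhhc3 was also lower in number 1 than in number 2, with a log2 difference of -0.51 ± 0.11 (SE, limma, adjusted p = 0.00926).

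The hydrolases divided in the same manner. Lypla1 was higher in number 1 than in number 2, by 1.19 ± 0.14 on the log2 scale (SE, limma, adjusted p = 0.00161), a ratio of 3.10. Its relative Lypla2, at 24.0, 32.3 and 22.2 FPKM with AAV-shbrpf1 and 20.9, 34.3 and 24.4 FPKM with AAV-scramble, was lower in number 1, with a log2 difference of -0.55 ± 0.12 (SE, limma, adjusted p = 0.00875). Ppt1, the lysosomal thioesterase lost in infantile neuronal ceroid lipofuscinosis, measured 24.8, 17.3 and 27.5 FPKM with AAV-shbrpf1, against 23.4, 18.8 and 24.5 FPKM with AAV-scramble. Its number 1 libraries lay above number 2 by 0.40 ± 0.11 (SE, limma, adjusted p = 0.0225).

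The median log2 difference of all genes between numbers 1 and 2 was 0.25. When the libraries were scaled to the same median, 8 genes again differed between the numbers (67.1% of all genes), but Zdhhc5 entered and Ppt1 dropped out, with 4 genes higher in number 1 (30.7% of all genes) and 4 lower (34.7%). Zdhhc5 was then lower in number 1 with a log2 difference of -0.44 ± 0.10 (SE, limma, adjusted p = 0.0118), and Ppt1 differed by 0.03 ± 0.11 (SE, limma, adjusted p = 0.792).

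The direction between numbers 1 and 2 went with base composition. The 5 genes higher in number 1 had a GC content of 37.9% to 45.0% in their longest coding transcript, and the 3 lower ones had 48.8% (Zdhhc3), 59.9% (Zdhhc8) and 61.4% (Lypla2). Over 11318 genes, GC content and the difference of number 1 minus 2 had a Pearson correlation of -0.78, a description across genes that share the same libraries. Among genes under 43% GC, 99.1% were higher in number 1 with a median log2 difference of 1.28, and among those of 54% or more, 16.9% were. Zdhhc3 and Zdhhc5, at 48.8% and 49.3% GC, had lower values in number 1 than in number 2, in a range of 46% to 50% GC where 85.0% of genes were higher in number 1.

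After the GC trend of each library was removed, 6 of the 10 genes differed between the numbers (47.1% of 11318 genes): Zdhhc2, Zdhhc3, Zdhhc5, Zdhhc8, Zdhhc17 and Ppt1. Of the 8 genes that had differed between numbers 1 and 2, 5 no longer passed in that contrast. Zdhhc2 stood at 0.24 (limma, adjusted p = 0.0702), Zdhhc20 at 0.12 (limma, adjusted p = 0.419) and Lypla1 at -0.25 (limma, adjusted p = 0.145). Zdhhc8, at 0.19 (limma, adjusted p = 0.179), and Lypla2, at 0.15 (limma, adjusted p = 0.256), had changed sign, as had Lypla1. Zdhhc2 and Zdhhc8 were higher in number 1 than in number 3 on this scale, and Zdhhc2 was higher in number 2 than in number 3 (limma, adjusted p = 0.00706, 0.0220 and 0.0327 in that order). Zdhhc17 kept 0.74 ± 0.12 (SE, limma, adjusted p = 0.0075), Zdhhc3 reached -0.86 ± 0.09 (SE, limma, adjusted p = 0.0031), and Ppt1 turned to -0.47 ± 0.08 (SE, limma, adjusted p = 0.0101). The virus difference of Zdhhc24 was 1.07 on this scale and that of Zdhhc3 was -0.32.

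Markers of the interneurons and of other cells also moved with the library number. All 8 GABAergic interneuron markers differed between the numbers (limma F test, adjusted p under 0.05), against 69.4% of all genes tested. With both viruses Gad1 was highest in number 1 and Sst lowest. Markers of radial glia and astrocytes summed to 853, 220 and 686 FPKM with AAV-shbrpf1 1 to 3 and 820, 245 and 695 FPKM with AAV-scramble 1 to 3. This sum had the order of numbers seen in Zdhhc17, Zdhhc20, Zdhhc2 and Lypla1. Fabp7 made up most of it (758, 169 and 570 FPKM with AAV-shbrpf1), and Aqp4 had the same order. The other genes of the list did not: with AAV-shbrpf1 Slc1a3 measured 64.9, 43.2 and 97.4 FPKM, and Gfap 13.9, 4.23 and 3.40 FPKM. Endothelial and mural markers summed to 18.7 and 26.5 FPKM in number 1 with AAV-shbrpf1 and AAV-scramble, and to at most 0.745 FPKM in the other 4 libraries. Acta2 and Col1a1 made up nearly all of this sum in number 1. The endothelial genes of the list did not share this rise. Cldn5 measured 0 FPKM in both libraries numbered 1, and Pecam1 stayed at or below 0.148 FPKM in every library. Oligodendrocyte lineage markers were lowest in number 1. They summed to 122, 190 and 245 FPKM with AAV-shbrpf1 1 to 3 and 106, 198 and 261 FPKM with AAV-scramble 1 to 3, although Pdgfra of this list was lowest in number 2. Fabp7 and Aqp4 had 42.6% and 41.4% GC, and Olig1 and Olig2 had 61.1% and 58.5%. Gfap and Col1a1, which were higher in number 1 than in number 2, had 55.5% and 58.9%. The parts of these other cells and of GC content in the differences between the numbers were not tested.

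**Figure D4:**
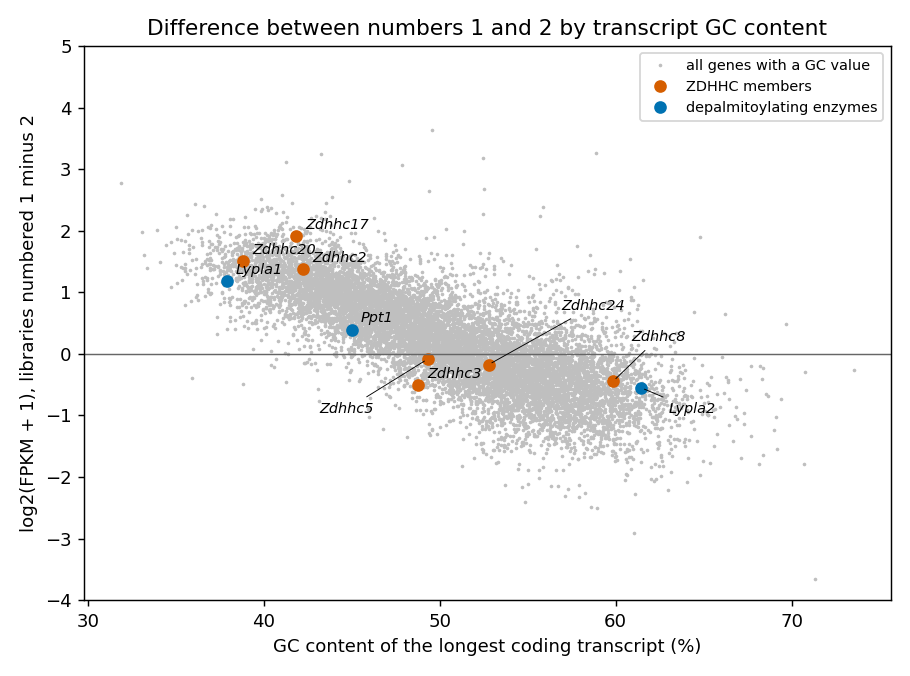
Difference in log2(FPKM + 1), libraries numbered 1 minus those numbered 2 with the virus in the model, against the GC content of the longest coding transcript for 11318 genes (grey; 1 gene lies outside the axis) and the 10 genes (coloured). The grey cloud slopes down from left to right, with Lypla1, Zdhhc20, Zdhhc17 and Zdhhc2 above 1 at its left end and Zdhhc8 and Lypla2 near -0.5 at its right end.

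The other genes of the cycle gave no call between the viruses. Of the 17 other ZDHHC genes 14 passed the filter and 0 were called. Lower in each pair were 3 (Zdhhc1, Zdhhc7 and Zdhhc22), where 11.3% of all genes tested were, and the median log2 difference was -0.06. Zdhhc11, Zdhhc19 and Zdhhc25 were listed at 0 in every library. The most abundant were Zdhhc9 (16.6 ± 6.54 FPKM with AAV-shbrpf1, against 17.1 ± 7.20 with AAV-scramble), Zdhhc16 (8.06 ± 1.73 and 8.57 ± 0.756 in the same order) and Zdhhc18 (7.77 ± 2.81 and 7.79 ± 2.84). Zdhhc1 had the largest average log2 difference of these 14, -0.23, at 4.14 ± 0.777 FPKM with AAV-shbrpf1 and 5.03 ± 0.767 FPKM with AAV-scramble (SD, n = 3 each throughout). Between the numbers 7 of the 14 differed, where 69.4% of all genes tested did.

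All 6 other depalmitoylating enzymes passed the filter and 0 were called. In each pair 1 was lower (Abhd10, against 11.3% of all genes tested) and none was higher (against 7.15%). The ABHD hydrolases that release palmitate from Dlg4 protein and N-Ras led this list. Abhd17a measured 20.7, 56.0 and 33.2 FPKM with AAV-shbrpf1, against 17.2, 47.7 and 38.5 FPKM with AAV-scramble. Abhd17b averaged 9.38 ± 3.22 FPKM with AAV-shbrpf1 and 10.5 ± 4.74 FPKM with AAV-scramble, and Abhd17c averaged 9.84 ± 1.05 FPKM with AAV-shbrpf1 and 9.74 ± 0.890 FPKM with AAV-scramble. Abhd17b had the largest average log2 difference of the 6, -0.12. Of the 6, 4 differed between the numbers, as did 69.4% of all genes tested.

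The 3 partner proteins that ZDHHC enzymes need for stability or activity were not called either. Selenok, the partner of Zdhhc6, averaged 39.7 ± 9.91 FPKM with AAV-shbrpf1 and 41.6 ± 10.4 FPKM with AAV-scramble. Golga7b, a partner of Zdhhc5, averaged 19.3 ± 6.39 FPKM with AAV-shbrpf1 and 20.2 ± 4.51 FPKM with AAV-scramble, and Golga7, a partner of Zdhhc9, averaged 10.7 ± 2.61 FPKM with AAV-shbrpf1 and 11.1 ± 2.84 FPKM with AAV-scramble. All 3 differed between the numbers, as did 69.4% of all genes tested.

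Of 27 palmitoylated neuronal substrates, 0 were called between the viruses and 0 were higher in each pair (7.15% of all genes tested). Lower in each pair were 5 (11.3% of all genes tested), among them Cdc42, Gphn, Grip1 and Arc. Their median log2 difference was -0.03. The growth-cone protein gene Gap43 averaged 396 ± 111 FPKM with AAV-shbrpf1 and 396 ± 70.8 FPKM with AAV-scramble, and the stathmin gene Stmn3 averaged 372 ± 71.2 FPKM with AAV-shbrpf1 and 357 ± 42.8 FPKM with AAV-scramble. Vamp2, of the vesicle fusion machinery, averaged 307 ± 197 FPKM with AAV-shbrpf1 and 314 ± 217 FPKM with AAV-scramble, and Gpm6a, of neuronal membranes, averaged 291 ± 132 FPKM with AAV-shbrpf1 and 301 ± 120 FPKM with AAV-scramble. The widest average differences were those of Nras and Arc. Nras measured 16.2, 8.87 and 21.9 FPKM with AAV-shbrpf1, against 6.55, 10.4 and 21.4 FPKM with AAV-scramble, so that 1 pair carried its log2 difference of 0.34. Arc measured 0.676, 9.15 and 0.410 FPKM with AAV-shbrpf1, against 1.23, 10.8 and 0.440 FPKM with AAV-scramble, high in number 2 with both viruses. Between the numbers 23 of the 27 substrates differed, where 69.4% of all genes tested did.

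The genes most like Zdhhc24 over the 6 libraries, by Pearson correlation of log2(FPKM + 1), were Gm21972 (0.957), Glod5 (0.956), Gm2541 (0.939), Snord104 (0.924) and Tsku (0.918). Zdhhc24 was selected for being higher with AAV-shbrpf1, so genes picked for likeness to it share that direction. They are a description taken from 12792 genes over 6 libraries. Tsku, which encodes a secreted leucine-rich repeat protein, measured 2.07, 1.87 and 3.21 FPKM with AAV-shbrpf1, against 0.767, 0.450 and 0.473 FPKM with AAV-scramble. After the mean of each number was taken out, the most alike were Ralb (1.00), Map2k7 (1.00), Mgme1 (1.00), Vwa5b1 (0.998) and Nat8l (0.998). The second measure holds only 3 independent differences, so values close to 1 are easily reached among 12792 genes. Map2k7, which encodes a kinase upstream of JNK, measured 6.90, 12.2 and 5.22 FPKM with AAV-shbrpf1, against 5.35, 8.10 and 3.64 FPKM with AAV-scramble; its level followed the numbers as well as the virus.

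Some of the 10 genes share genomic ground with a neighbour, and without a stated use of strand their reads could mix. Zdhhc2 overlaps Cnot7 on the other strand by 17729 bp, and Cnot7 averaged 11.8 ± 7.63 FPKM with AAV-shbrpf1 and 13.8 ± 6.44 FPKM with AAV-scramble. Ppt1 overlaps Cap1, and Zdhhc5 overlaps Med19, by 129 and 246 bp at their ends. The genes overlapping Zdhhc3 and Lypla1 were near 0, with Tgm4 at 0.0496 FPKM with AAV-shbrpf1 and 0.0735 FPKM with AAV-scramble, and Gm37988 at 0 FPKM with AAV-shbrpf1 and 0.0900 FPKM with AAV-scramble.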

How the data were processed

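RNA of 6 infected samples was read from both ends on Illumina HiSeq, per the labels' protocols. The authors deposited 1 table of 55335 genes. Its header names no unit, and the deposited values are read as FPKM. Times transcript length, low values of single-exon genes fall on repeated steps. Other units scaled by length and library would give such steps too, so the depths and counting errors rest on this reading. FastQC, StringTie and DESeq2 are named in the submitters' processing notes. The sources used here name neither an aligner nor a strand setting. The notes name mm9, but 54899 of 55154 identifiers found in GENCODE M21 have its GRCm38 coordinates.

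The steps gave 13.1 to 19.3 M fragments per library with AAV-shbrpf1 and 14.3 to 21.1 M with AAV-scramble. Between 40.1% and 44.0% of low values lay on whole steps (tolerance 0.03), so no count test was used; counting errors cover counting only.

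log2(FPKM + 1) of 12792 genes (reaching a mean of 1 FPKM in either group) was fitted by limma 3.58.1 under R 4.3.3 (two-sided, with trend, Benjamini-Hochberg adjusted p under 0.05), tested on simulated data. Same-numbered libraries deviated together (correlations of 0.866, 0.829 and 0.574, against at most 0.00199 for other combinations), a pairing found in the data. Deviations were taken from the mean of each virus group. High correlations of same-numbered libraries then pull the other combinations down, so part of this contrast is built in. The numbers were compared by an F test. The GC trend was a natural spline with 4 degrees of freedom per library, chosen after seeing the data, as were the GC ranges. Members and lists were chosen with earlier results of these data known. Named are all members, the 3 most abundant and the most different gene of each short list, the 4 most abundant and 2 most different substrates, and the 5 genes most like Zdhhc24 by each measure. Alternatives changed the pseudocount, filter, scaling, block, GC trend and libraries. The values of 1 substrate are not reported here.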

Additional observations from a re-analysis of the deposited data

How the results depend on the processing

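Zdhhc24 stayed higher with AAV-shbrpf1 under every alternative run. It was selected for being higher in each pair, and its groups did not overlap. Leaving out libraries or pairs could therefore not change its sign. Its log2 difference was 1.36 with a pseudocount of 0.1 and 0.91 to 1.21 with a library or a pair left out. Zdhhc3 (-0.46 to -0.20 with libraries or pairs left out) and Brpf1 (-0.36 to -0.06) stayed lower. Both were lower in each pair, so leaving out a pair could not change their sign. Zdhhc5 also stayed below 0 (-0.11 to -0.02), but its difference was small. It was higher with AAV-shbrpf1 by 0.440% in pair 3, and its interval with the block ran from -0.26 to 0.14.

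The direction of the others depended on single libraries, and for some on pairs. With single libraries left out, without the block, the log2 difference ran from -0.40 to 0.40 for Zdhhc2, -0.58 to 0.45 for Zdhhc17 and -0.35 to 0.45 for Zdhhc20. It ran from -0.21 to 0.15 for Zdhhc8, -0.42 to 0.24 for Lypla1, -0.17 to 0.18 for Lypla2 and -0.0881 to 0.231 for Ppt1. Each such fit held a library number in 1 virus but not in the other, and these genes differed between the numbers. With whole pairs left out under the block, Zdhhc17 ran from -0.32 to 0.0555. Zdhhc8 (-0.0569 to -0.0111) and Lypla1 (-0.153 to -0.0113) then stayed lower. Under the replicate block, leaving out pair 1 turned Zdhhc2 to 0.00755 and Zdhhc20 to 0.0364; leaving out pair 2 turned Zdhhc2 to 0.0865, Zdhhc17 to 0.0555, Zdhhc20 to 0.104 and Lypla2 to 0.0286; leaving out pair 3 turned Lypla2 to 0.05002 and Ppt1 to -0.0178. Scaling the libraries to the same median turned Zdhhc2 to 0.00169, Zdhhc20 to 0.00137 and Lypla2 to 0.00518. Removing the GC trend, an alternative added after seeing the data, turned Zdhhc2 to 0.0430 and Zdhhc20 to 0.0806, with or without the pairs as a block. The cause was not tested.

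The count of genes called between the viruses was 0 without the block and with the replicate block, which changed no call of a member. With pair 2 left out under the block it was 5 higher and 3 lower, and with pair 3 left out 1 higher. Genes that differed between the numbers numbered 5327 of 11318 with the GC trend removed, against 8876 of 12792; members numbered 6, against 8. Depth limits Lypla1, Zdhhc20 and Zdhhc24 most, with counting errors of a pair's ratio up to 18.6%, 14.6% and 13.6%.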
